A study of Rattus norvegicus with 6 samples.

Results

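Glycolysis, gluconeogenesis and hypoxia response genes were examined in male Sprague-Dawley rats, in the renal cortex of animals dosed with monuron, a phenylurea herbicide, and of animals given corn oil. The 34 genes were chosen by name: 6 that make or release glucose, 2 that bring fructose into the pathway, 16 that take up and break down glucose or divert pyruvate, and 10 that respond to low oxygen. Of these, 33 had at least 1 probe on the array that could be named through its accession, and all 33 passed the detection filter, among 30229 genes tested in all. Of those, 12072 carried a gene symbol and the others only an accession or probe name, so shares of all genes given below cover both kinds. Egln1, an oxygen-sensing prolyl hydroxylase, was not matched to a probe and is not analysed here.

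Each group held 3 arrays, 1 per animal, and the labels give 3 animals a group: monuron at 200 mg/kg/day for 4 weeks, and corn oil, the vehicle, for 4 weeks. The rats were 5 weeks old when purchased and all ate the same basal diet. Levels are the probe's signal divided by the 75th percentile of the non-control probes on the same array, called relative signal here, and differences are on the log2 scale, monuron minus corn oil. All monuron arrays lay on 1 slide and all corn oil arrays on another, so slide, scan and treatment cannot be told apart in any value. Between 60.9% and 70.4% of probes were well above background on an array, the fewest on corn oil replicate 2. Markers of the cortex were present: the phosphate transporter gene Slc34a1 of the early proximal tubule had a relative signal of 307.6 to 380.9 with monuron and of 361.6 to 382 with corn oil.

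Glucose is made in few organs, and the kidney cortex is one of them. Cells of the proximal tubule turn lactate, glutamine and glycerol into glucose, and they use little glucose themselves, whereas the distal segments and the medulla rely more on glycolysis. The steps that run only one way are catalysed by different enzymes in each direction, so their transcripts can vary separately. When oxygen is scarce, hypoxia-inducible factors (HIF) raise many glycolysis genes together with genes of vessel growth, mitophagy and collagen processing, by binding a short core motif near their starts.

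The HIF core letters are shown in promoters of hypoxia and glycolysis genes because these genes would be read together in a low-oxygen response, and letters of the cyclic AMP response element are shown for the classic hormone-regulated gluconeogenesis gene. Sequences are from RefSeq on the GRCr8 build, 250 bases before to 50 after the gene start, 5′ to 3′ in the gene's direction. Promoters were listed for 31 of the 34 genes, and not for Pc, Pgk1 or Ndrg1. Capitals mark ACGTG on either strand in Ankrd37 (chr16:53001257-53001556, plus strand), Car9 (chr5:62558774-62559073, plus strand) and Ldha (chr1:106507842-106508141, plus strand), and TGACG on either strand in Pck1 (chr3:182348322-182348621, plus strand).
Ankrd37: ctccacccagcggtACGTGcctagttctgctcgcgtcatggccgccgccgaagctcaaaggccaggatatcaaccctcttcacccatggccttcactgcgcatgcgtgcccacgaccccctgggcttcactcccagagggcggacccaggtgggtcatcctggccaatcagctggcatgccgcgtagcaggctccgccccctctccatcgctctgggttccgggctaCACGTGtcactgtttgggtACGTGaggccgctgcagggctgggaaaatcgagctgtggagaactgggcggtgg
Car9: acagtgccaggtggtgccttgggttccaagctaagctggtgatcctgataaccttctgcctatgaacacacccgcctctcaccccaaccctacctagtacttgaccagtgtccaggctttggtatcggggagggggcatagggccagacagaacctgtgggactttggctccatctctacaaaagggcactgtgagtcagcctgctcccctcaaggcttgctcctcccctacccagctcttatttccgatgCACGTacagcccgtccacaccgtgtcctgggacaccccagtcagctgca
Ldha: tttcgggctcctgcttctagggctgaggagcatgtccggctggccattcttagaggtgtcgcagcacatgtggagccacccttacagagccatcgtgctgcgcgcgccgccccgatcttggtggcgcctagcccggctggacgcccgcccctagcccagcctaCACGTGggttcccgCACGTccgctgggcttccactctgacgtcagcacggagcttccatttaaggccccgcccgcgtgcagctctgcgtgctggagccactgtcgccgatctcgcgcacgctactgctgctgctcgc
Pck1: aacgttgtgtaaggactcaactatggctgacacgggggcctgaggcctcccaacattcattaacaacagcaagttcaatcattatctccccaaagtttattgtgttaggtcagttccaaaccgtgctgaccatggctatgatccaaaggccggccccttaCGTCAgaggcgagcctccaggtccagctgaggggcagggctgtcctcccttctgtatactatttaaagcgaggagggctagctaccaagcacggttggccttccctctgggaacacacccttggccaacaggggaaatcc

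ACGTG, searched on both strands, was present in at least 1 promoter of 6 of 9 hypoxia response genes, 9 of 15 glucose-using genes, 1 of 2 fructose entry genes and 0 of 5 glucose-making genes. Counted the same way, 20.9% of all 27457 genes with a listed promoter held it, and 19.3% of the 33469 promoters taken singly. Of the 31 member genes 5 had several promoters listed. Ankrd37 held 4 matches, of which a CACGTG was counted once on each strand, and Ldha 3, counted the same way. TGACG was present in 10 of the 31 member genes, against 23.0% of all genes and 21.2% of all promoters taken singly, and a TGACGTG would be counted for both motifs. These are matches of letters only, and no form of the HIF core other than ACGTG was searched. Of the measured member genes that carry ACGTG, Ankrd37 (-0.33), Tkfc (-0.24) and Eno1 (-0.06) had differences below 0. The others lay above 0, from 0.01 for Ldha and Pgam1 to 0.36 for Car9. Of all tested genes 55.3% lay above 0. Values by array of Ankrd37, Tkfc and Car9 are given further on.

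Pc, which encodes pyruvate carboxylase, was the 1 gene of the 33 that was called, at limma's adjusted p under 0.05. This mitochondrial enzyme turns pyruvate into oxaloacetate, the entry step of gluconeogenesis from lactate and alanine. Its relative signal was 159.9, 169.1 and 161.2 on the monuron arrays, against 230.8, 235.7 and 224.2 on the corn oil arrays. The groups were far apart and each was tight, with means of 163 ± 4.95 with monuron and 230.2 ± 5.74 with corn oil (SD, n = 3 each). The level with monuron was 0.71-fold that with corn oil (95% interval 0.638 to 0.789, 1.41-fold lower), and limma's adjusted p was 0.0318. A second probe of Pc read 44.6, 47.0 and 47.5 with monuron, against 72.9, 65.0 and 63.7 with corn oil. In a fit with every probe on its own, its difference was -0.53 ± 0.08 (SE, limma adjusted p = 0.0481) and that of the brighter probe -0.50 ± 0.06 (adjusted p = 0.0332), where 0.391% of 41125 probes were called lower.

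Of all genes 1.36% were called in either direction, 0.414% lower and 0.949% higher, so 1 of 33 members lower and 0 higher is set against those shares. At an unadjusted p under 0.05 stood 5 members, or 15.2%, against 17.6% of all genes. The monuron and corn oil arrays did not overlap in 9 members (27.3%), 4 of them lower and 5 higher, against 25.7% of all genes, 10.3% lower and 15.4% higher. Over the genes with a symbol alone, 1.66% were called, 18.2% had an unadjusted p under 0.05 and 27.7% did not overlap. Hk2 passed the detection filter through the monuron arrays, where it was higher, and so counts in these numbers by way of the filter. Among the other 32 members, all well above background on every array, 4 had an unadjusted p under 0.05 and 8 did not overlap (25%), against 26.2% of the genes detected that way. The members were thus separated between the groups about as often as genes at large. The call of Pc depended on the full set of arrays: leaving out any single array gave a difference between -0.52 and -0.48 with limma's adjusted p between 0.0915 and 0.125, so that Pc was not called with any of the 6 arrays left out.

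**Figure D1:**
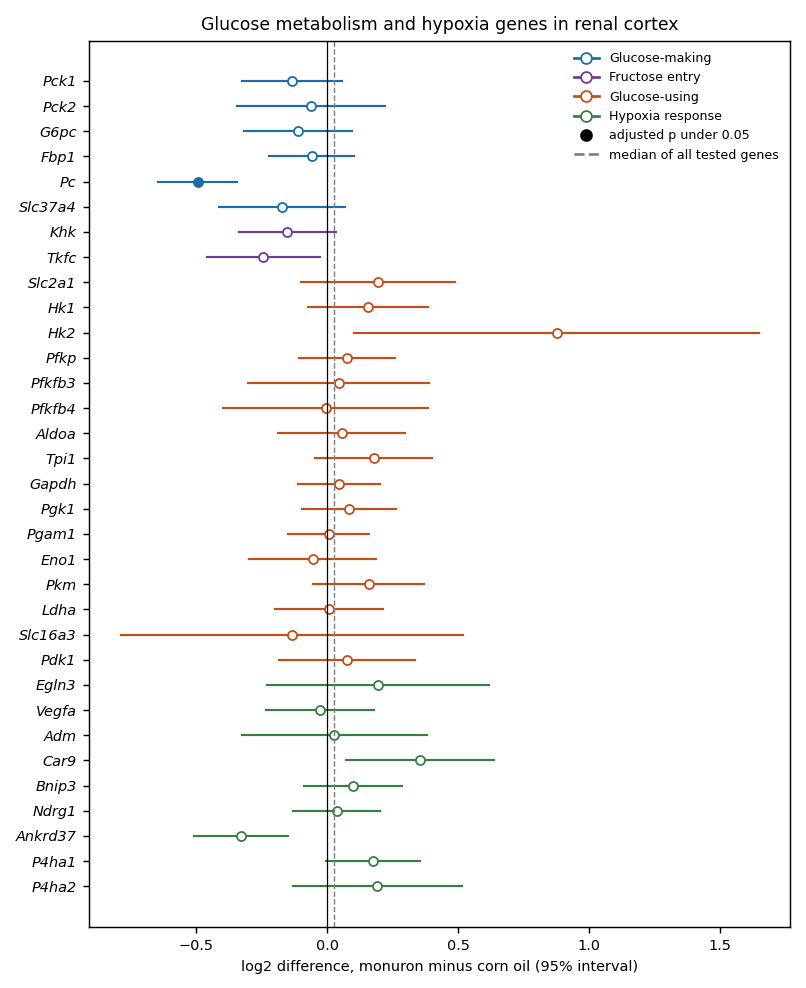
Log2 difference, monuron minus corn oil, of the 33 measured genes with its 95% interval (3 arrays per group), coloured by role; filled points passed an adjusted p of 0.05. Pc alone is filled, and the 8 genes of glucose making and fructose entry lie left of 0. Of the 16 glucose-using genes 13 lie right of 0, among them Hk2, which passed the detection filter through the monuron arrays.

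The other genes of glucose making were lower in their means by small amounts, and none was called. Pck1, the cytosolic phosphoenolpyruvate carboxykinase that commits oxaloacetate to glucose, read 241.3, 217.3 and 222 with monuron, against 236.6, 264.6 and 245.8 with corn oil. The groups overlapped through monuron replicate 1, and the difference was -0.13 ± 0.08 (SE, limma adjusted p = 0.43). Its dimmer probe did not overlap, at 128, 116 and 123.5 with monuron, against 152.2, 162.5 and 145.2 with corn oil. That probe of Pck1 gave a larger difference, -0.32 ± 0.08, which was not called either (adjusted p = 0.122).

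G6pc, listed as G6pc1 in the reference table, encodes the glucose-6-phosphatase that releases free glucose. It read 174.5, 182.5 and 184.3 with monuron, against 181.9, 214.7 and 189.6 with corn oil, so the groups overlapped. The difference was -0.11 ± 0.08, and -0.04 without corn oil replicate 2, its highest array. Its dimmer probe did not overlap, at 17.8, 18.3 and 20.2 with monuron, against 20.5, 24.45 and 22.2 with corn oil. That probe gave a larger difference, -0.25 ± 0.095, which was not called (limma adjusted p = 0.257). Slc37a4, the transporter that carries glucose 6-phosphate to that phosphatase, read 73.4, 73.1 and 69.2 with monuron, against 71.3, 87.7 and 85.2 with corn oil. Corn oil replicate 1 lay inside the range of the monuron arrays, and the difference was -0.17 ± 0.10 (adjusted p = 0.415).

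Fbp1, fructose-1,6-bisphosphatase, read 578, 548.3 and 597.3 with monuron, against 579.5, 611 and 606.2 with corn oil, and its 2 probes stood on either side of 0 (-0.06 and 0.05). Pck2, the mitochondrial carboxykinase, read 5.06, 4.97 and 4.42 with monuron, against 4.6, 5.79 and 4.73 with corn oil, with probes from -0.14 to 0.12. Both genes overlapped between the groups. All 6 glucose-making genes thus had a difference below 0 (median -0.12), against a median of 0.02 over all genes, of which 55.3% lay above 0. Fbp1 turned to 0.00 under quantile normalization and 0.02 after normexp correction, and Pck2 to 0.04 without corn oil replicate 2.

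The fructose genes stood a little lower with monuron, and neither was called. Khk, ketohexokinase, which phosphorylates fructose and is abundant in proximal tubule and liver, read 208.3, 218.2 and 227.5 with monuron, against 228, 255.5 and 243.7 with corn oil. The groups did not overlap, though monuron replicate 3 and corn oil replicate 1 nearly met. Its difference was -0.15 ± 0.08 (adjusted p = 0.357), and -0.30 ± 0.09 by its dimmer probe (adjusted p = 0.174). Tkfc, the triokinase that phosphorylates the glyceraldehyde split from fructose, read 6.32, 6.91 and 7.11 with monuron, against 7.38, 8.56 and 8.17 with corn oil. Every monuron array lay below every corn oil array, with a difference of -0.24 ± 0.09 (adjusted p = 0.238).

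**Figure D2:**
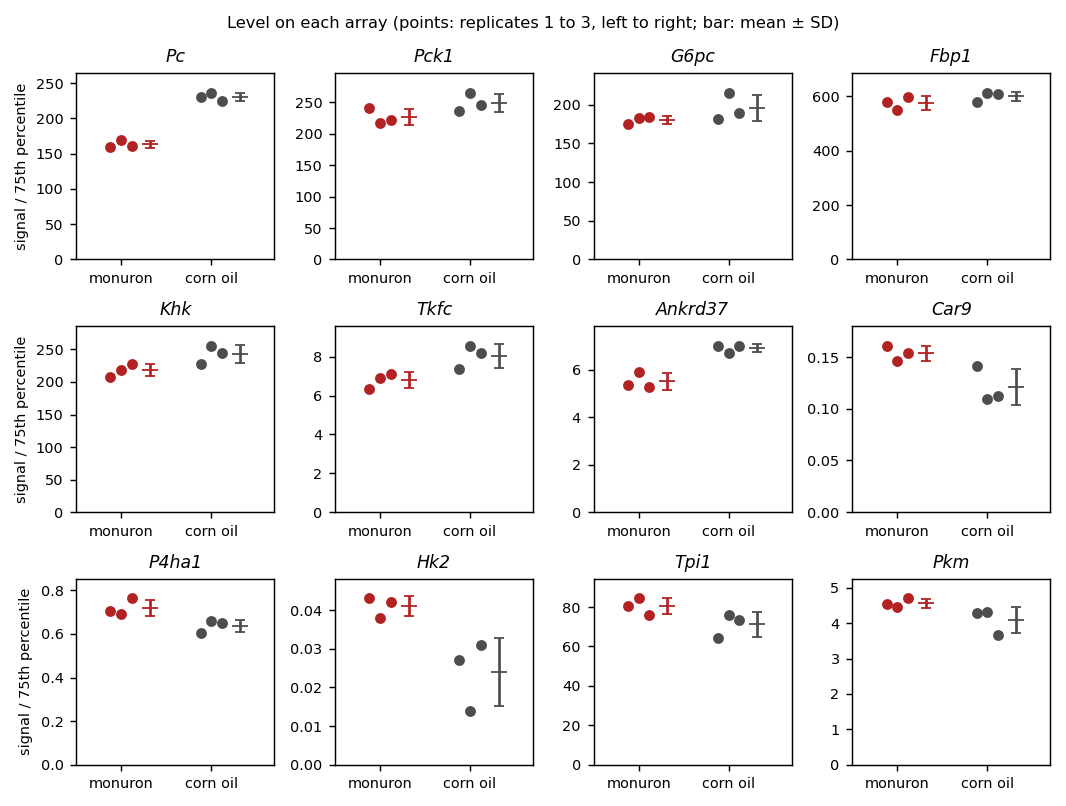
Relative signal (signal over the array's 75th percentile, linear axis from 0) on each array for 12 of the genes, monuron left and corn oil right, with the mean ± SD beside the 3 points. The groups are well apart for Pc (159.9 to 169.1 against 224.2 to 235.7) and meet or nearly meet for Khk and Pkm. Pck1, G6pc and Fbp1 overlap by the brightest probe, which is the one plotted.

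Transcripts of these lower genes are rich in proximal tubule, and markers of the early proximal tubule were lower in their sum beside them. The summed relative signal of 8 markers of segments S1 and S2 was 958 to 1070 on the monuron arrays and 1130 to 1220 on the corn oil arrays, with 6 of the 8 below 0 and 0 called. The farthest from 0, picked after their values were seen, were the genes of the paired endocytic receptors cubilin and megalin, Cubn at -0.69 (adjusted p = 0.0669) and Lrp2 at -0.52 ± 0.10 (adjusted p = 0.076). The 5 markers of the late segment S3 overlapped in their sum, at 388, 464 and 417 with monuron, against 414, 417 and 443 with corn oil, with 2 above 0, 3 below, a median of -0.02 and 0 called. Within that list Slc7a13, an amino acid transporter gene, stood at 1.04 and Slc5a1 at -0.49. A lower median was not particular to the early proximal tubule, whose markers had one of -0.19. Podocyte markers had a median of -0.19, with 4 of 5 below 0, and leukocyte markers of -0.25, with 5 of 6 below 0. The medians of the distal and collecting duct lists were 0.035 and 0.028. In bulk cortex, fewer cells of a type and less RNA per cell cannot be told apart, and the part of these markers in the values above was not tested. Liver also makes Pc, Pck1, G6pc, Khk and Fbp1 transcripts, and liver transcripts were uneven: Alb read 15.3, 4.35 and 4.11 with monuron, against 1.33, 1.09 and 6.34 with corn oil. Of the 13 hepatocyte markers 11 were measured, 8 lay above 0 (median 0.57), none was called, and Tat and Cps1 did not pass detection. Their sum was 87.8 to 126 with monuron and 86.3 to 120 with corn oil, most of it from Cyp2e1, a cytochrome P450 gene, at 67.5 to 82 with monuron and 71.7 to 91.1 with corn oil. The part of liver transcripts in the value of Pc was not tested. Without monuron replicate 1 and corn oil replicate 3, the arrays highest in Alb within their groups, Pc stood at -0.50 ± 0.09 and was not called (adjusted p = 0.227).

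None of the 16 genes that take up or use glucose was called, although 13 had a difference above 0 (median 0.07). These 13 include Hk2, which passed the filter through the monuron arrays. With detection required on all 6 arrays, 12 of 15 lay above 0. The entry steps were the glucose transporter gene Slc2a1, at 0.20 ± 0.12, and the hexokinases, which trap glucose as its 6-phosphate. Hk1 read 4.86, 4.26 and 4.32 with monuron, against 4.06, 4.31 and 3.69 with corn oil, and the groups overlapped. Hk2, the insulin- and HIF-responsive hexokinase, was near the detection limit, at 0.043, 0.038 and 0.042 with monuron, against 0.027, 0.014 and 0.031 with corn oil. It was well above background on all 3 monuron arrays and 2 of the 3 corn oil arrays. Corn oil replicate 2, the array without detection, was the lowest, and the size of the difference depended on it and on the background: 0.88 as measured, 0.51 without that array, and 0.24 after normexp correction and quantile normalization. No test is read from this gene, since the monuron arrays alone carried it past the filter.

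Among the middle steps, Tpi1, triose-phosphate isomerase, read 80.7, 84.3 and 76.2 with monuron, against 64.1, 75.9 and 73.6 with corn oil. The groups just separated (0.18 ± 0.09, adjusted p = 0.373), while its other 2 probes gave 0.03 and -0.07. Pfkp, a phosphofructokinase subunit, stood at 0.08, the regulatory kinase genes Pfkfb3 and Pfkfb4 at 0.04 and -0.01, aldolase gene Aldoa at 0.06, Pgk1, phosphoglycerate kinase, at 0.08, Pgam1, phosphoglycerate mutase, at 0.01 and the enolase gene Eno1 at -0.06. Gapdh, often taken as a reference transcript, had a difference of 0.05 ± 0.06 by its brightest probe, and its other 4 probes lay between -0.11 and -0.02. The 95% interval of that difference was -0.11 to 0.20, and those of Pgk1 and Pgam1 were -0.10 to 0.26 and -0.15 to 0.16.

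At the end of the pathway, Pkm, pyruvate kinase, read 4.55, 4.45 and 4.7 with monuron, against 4.3, 4.32 and 3.68 with corn oil. All monuron arrays lay above all corn oil arrays, by a narrow margin (0.16 ± 0.09, adjusted p = 0.4). The other detected probe of Pkm overlapped, at 2.51, 2.16 and 2.555 with monuron, against 2.48, 2.44 and 2.01 with corn oil (0.06 ± 0.12). Ldha, lactate dehydrogenase A, stood at 0.01 ± 0.08, the lactate exporter gene Slc16a3 at -0.13 ± 0.27 and Pdk1, a kinase that switches off pyruvate dehydrogenase, at 0.08 ± 0.11. Corn oil replicate 1 was the highest of all arrays for Slc16a3 (2.85) and corn oil replicate 2 the lowest (1.36), so this gene was the least settled of the late steps by its standard error.

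**Figure D3:**
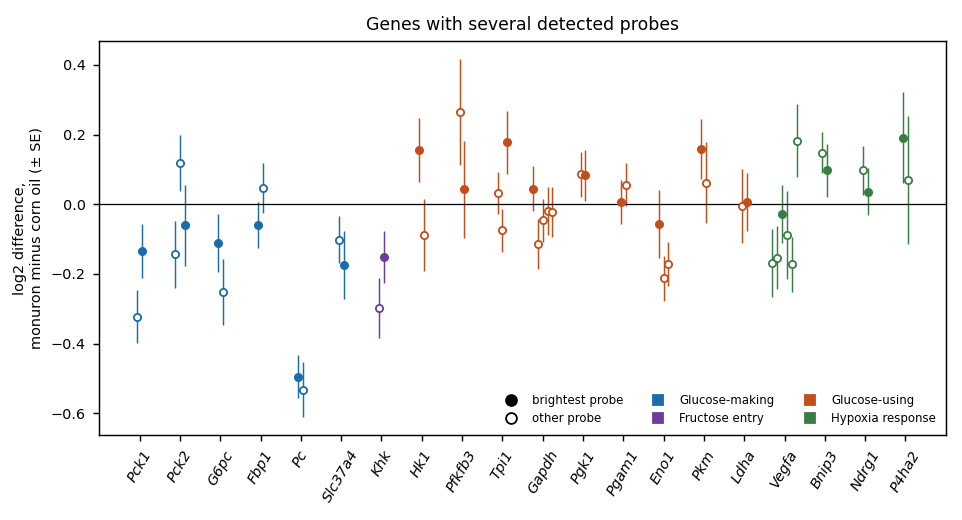
Log2 difference ± SE of every detected probe of the 20 genes with several detected probes; filled points are the brightest probe, which gives the gene's value. Both probes of Pc lie near -0.5, whereas in 7 of the 20 genes the probes fall on both sides of 0.

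The members were measured by 66 probes, of which 63 passed detection. Of the 20 genes with several passing probes, 7 had probes on both sides of 0, namely Fbp1, Pck2, Hk1, Tpi1, Gapdh, Ldha and Vegfa. For Eno1 the dimmer probes gave -0.21 and -0.17, against -0.06 for the brightest. The size of the smaller differences was therefore of the order of the disagreement between probes of a gene, which did not hold for Pc.

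At steps where glucose making and glucose use oppose each other, the log2 ratio of the opposed transcripts was formed within each array, which cancels any scaling of the array. These 5 ratios were chosen after the values were seen. Relative to the corn oil mean, Pkm over Pc stood at 0.68, 0.57 and 0.71 on the monuron arrays, against 0.07, 0.05 and -0.11 on the corn oil arrays, a 1.57-fold higher ratio with monuron. Pkm over Pck1 stood at 0.2, 0.32 and 0.36 with monuron, against 0.14, -0.01 and -0.14 with corn oil, and Hk1 over G6pc at 0.44, 0.18 and 0.19 with monuron, against 0.12, -0.04 and -0.08 with corn oil. Neither ratio overlapped between the groups when formed, as here, from the brightest probe of each gene. The other detected probe of Hk1 had a difference of -0.09 and that of Pkm 0.06. Those of G6pc and Pck1 stood at -0.25 and -0.32, and ratios from these dimmer probes were not formed. Hk2 over G6pc carries the same limit as Hk2 itself and is plotted only. Pfkp over Fbp1 overlapped, with a mean difference of 0.14. The ratios are given as a description, with no test, and Pkm over Pc contains Pc, the called gene.

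**Figure D4:**
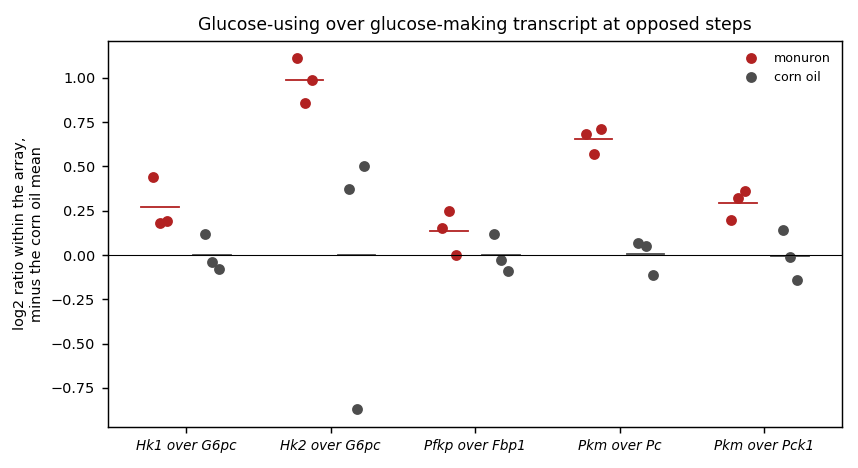
Log2 ratio, within each array, of a glucose-using over a glucose-making transcript, minus the corn oil mean; points are arrays and bars are group means, monuron left of corn oil. Pkm over Pc is separated most clearly relative to its spread (0.57 to 0.71 against -0.11 to 0.07), Pfkp over Fbp1 overlaps, and Hk2 was not well above background on corn oil replicate 2, its lowest point.

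Hypoxia response genes showed no called change: 0 of 9 were called, 7 had a difference above 0 and the median was 0.10. The most separated was Ankrd37, an ankyrin repeat protein gene that HIF induces in human cells. It read 5.35, 5.93 and 5.28 with monuron, against 7.01, 6.72 and 7.02 with corn oil. All monuron arrays lay below all corn oil arrays (-0.33 ± 0.07, 0.797-fold, 95% interval 0.704 to 0.902), but the gene was not called (adjusted p = 0.109), and its promoter, printed above, holds 4 matches of ACGTG. Car9, a carbonic anhydrase that HIF raises strongly in tumours, was dim and ran the other way, with 0.161, 0.146 and 0.154 with monuron, against 0.141, 0.11 and 0.112 with corn oil. The groups did not overlap, monuron replicate 2 and corn oil replicate 1 lying closest, and the difference was 0.36 ± 0.12 (adjusted p = 0.207).

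P4ha1 and P4ha2 encode the catalytic subunits of the collagen prolyl hydroxylases. P4ha1 read 0.704, 0.693 and 0.763 with monuron, against 0.606, 0.659 and 0.649 with corn oil, without overlap (0.18 ± 0.07, adjusted p = 0.295). P4ha2 overlapped (0.19 ± 0.13). Vegfa, the vessel growth factor gene, stood at -0.03 ± 0.08, with 6 probes between -0.17 and 0.18. Bnip3, a mitophagy receptor gene, stood at 0.10 ± 0.08, Ndrg1, a stress-responsive gene, at 0.04 ± 0.07, the vasodilator peptide gene Adm at 0.03 ± 0.14, and Egln3, an oxygen-sensing hydroxylase, at 0.19 ± 0.17, all with overlapping groups by the brightest probe. The dimmer probe of Bnip3 did not overlap (0.15 ± 0.06, limma adjusted p = 0.277), and that of Ndrg1 just separated (0.10 ± 0.07, adjusted p = 0.525).

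The 4 roles can be set side by side by array, as the median over their genes after each gene was centred on its corn oil mean. Glucose-making genes had medians of -0.10, -0.14 and -0.17 on the monuron arrays, against -0.09, 0.10 and -0.03 on the corn oil arrays, so the groups were adjacent and corn oil replicate 1 nearly met the monuron arrays. Glucose-using genes had 0.07, 0.06 and 0.09 with monuron, against 0.07, 0.00 and -0.05 with corn oil, where corn oil replicate 1 lay within the monuron range. Hypoxia response genes had 0.09, 0.02 and 0.13 with monuron, against -0.01, -0.04 and 0.00 with corn oil, a narrow separation. The 2 fructose entry genes had -0.28, -0.18 and -0.13 with monuron, against -0.10, 0.085 and 0.02 with corn oil, without overlap. The role medians are descriptions without a test. Over the alternatives other than spike-in scaling, the glucose-making median ran from -0.17 to -0.07 and the glucose-using one from 0.03 to 0.11. Of the 16 glucose-using genes 10 to 14 lay above 0, or 12 of 15 where detection on all 6 arrays left Hk2 out.

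Among 112 other genes of these pathways, 101 were measured and limma called 0. At an unadjusted limma p under 0.05 stood 26 (25.7%), against 17.6% of all genes and 18.2% of genes with a symbol. Groups did not overlap in 34.7% of them, against 25.7% of all genes and 27.7% of genes with a symbol. Edn1, described below, passed the filter through the monuron arrays, where it was higher, and so counts in both numbers by way of the filter. Of 6 measured pentose phosphate genes, which make NADPH and ribose from glucose 6-phosphate, 5 did not overlap between the groups, 4 higher and, picked after its value was seen, Rpia, ribose 5-phosphate isomerase, lower (-0.50). Tkt, transketolase, read 269.3, 273.2 and 264.5 with monuron, against 227.1, 226.7 and 197.6 with corn oil (0.31 ± 0.08, adjusted p = 0.135). Pgls, a lactonase of the same pathway, stood at 0.27 ± 0.07. Both were higher on every monuron array than on any corn oil array, and neither was called.

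Of 11 measured pyruvate fate genes, 4 lay above 0 and 7 below. Pdp2, a phosphatase that activates pyruvate dehydrogenase, read 35.3, 33.2 and 40.8 with monuron, against 49.1, 45.8 and 51 with corn oil (-0.42 ± 0.10, adjusted p = 0.12). Pdk2, a kinase that inactivates the same complex, stood at -0.30 ± 0.08 and Pdk3 at -0.14 ± 0.08. Other genes of that switch, named after their values were seen, lay above 0. The phosphatase gene Pdp1 stood at 0.055, and the kinase genes Pdk4 and Pdk1 at 0.26 and 0.08. Each side of the switch thus had differences of both signs, without a call.

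Of 13 glycogen and polyol genes 7 did not overlap, 4 higher and 3 lower, against 25.7% of all genes. Pgm2, a phosphoglucomutase gene, stood at 0.24 and Ugp2, which makes UDP-glucose, at 0.25. The lower ones, named after their values were seen, were Pygl, liver glycogen phosphorylase, at -0.25, Gbe1, the branching enzyme, at -0.22 and Pgm1, another phosphoglucomutase, at -0.17. Of 11 measured sugar and lactate transport genes 6 lay above 0 and 5 below. The sodium-glucose cotransporter genes Slc5a2 and Slc5a1, which recover filtered glucose, stood at -0.29 ± 0.09 (adjusted p = 0.209) and -0.49 ± 0.14 (adjusted p = 0.167), and Slc5a10, a sodium-linked sugar transporter, at 0.97 ± 0.32. Of 17 other gluconeogenesis genes 7 lay above 0 and 10 below. Among them Hnf4a, a transcription factor of proximal tubule and liver, stood at -0.32 ± 0.09, Foxo1, an insulin-regulated factor, at -0.15 ± 0.06 and Mdh2, mitochondrial malate dehydrogenase, at 0.16 ± 0.07.

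Of 16 other measured glycolysis genes 10 lay above 0 and 6 below. Among them Bpgm, the bisphosphoglycerate mutase that is abundant in red cells, read 15.4, 14.2 and 14.5 with monuron, against 9.91, 10 and 11.5 with corn oil (0.49 ± 0.09, adjusted p = 0.0686). Red cell transcripts were higher beside it: the summed relative signal of 7 measured erythroid markers was 1520 to 1630 with monuron and 646 to 888 with corn oil, 5 of the 7 were called higher, and their part in Bpgm was not tested. Aldoc, an aldolase, stood at 0.28 ± 0.09. Of 27 other measured hypoxia genes 12 lay above 0 and 15 below. Among them Edn1, the endothelin 1 gene, read 0.055, 0.098 and 0.088 with monuron, against 0.037, 0.022 and 0.021 with corn oil. It was well above background on all 3 monuron arrays but on 1 of 3 corn oil arrays, so it passed the filter through the monuron arrays and no test is read from it. Its difference was 1.61 as measured and 0.59 after normexp correction and quantile normalization. Bnip3l, a mitophagy receptor gene, stood at -0.21 ± 0.06 and Ero1a, an oxidase of protein folding, at 0.27 ± 0.08.

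**Figure D5:**
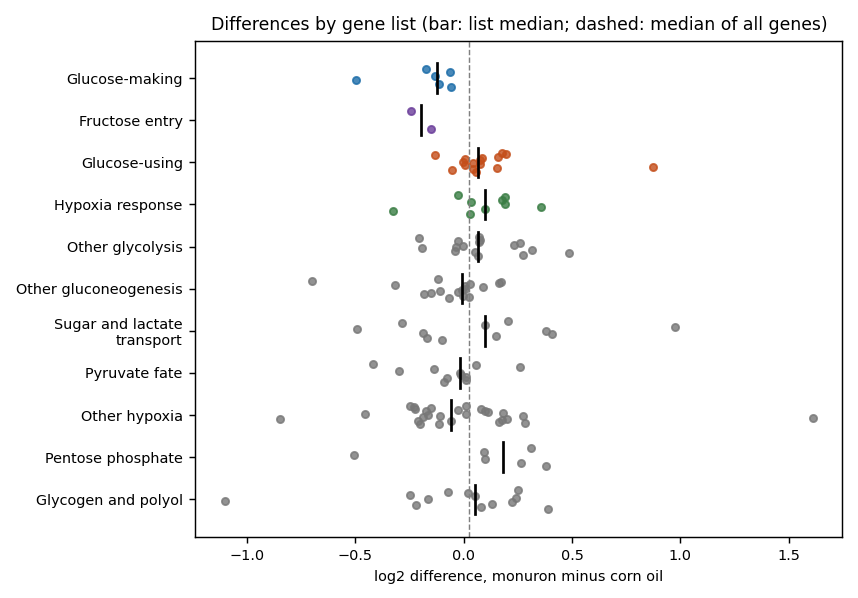
Log2 differences, monuron minus corn oil, of the 33 members (coloured, by role) and 101 other measured pathway genes (grey); black bars are list medians and the dashed line is the median of all tested genes, 0.02. Most genes lie within 0.5 of 0, and Edn1 (1.61), dim on the corn oil arrays, is the farthest to the right.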

How the data were processed

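Renal cortex RNA of 3 monuron-dosed and 3 corn oil rats was hybridised to 1-colour Agilent arrays. Spot intensity, on a linear scale, is what the deposited scanner files give; the submitters' processing notes name Agilent Feature Extraction 10.7. A value table of the authors, also deposited, gives a ratio, which equals the processed signal over 1 constant per array within 0.00498% for values of at least 1, so its scale is settled from the values.

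Each processed signal was divided by the 75th percentile of the 61537 non-control probes on its array and put on the log2 scale. The 1439 control spots and outlier spots were left out, and 0 spots were saturated. Of the probes, 41125 were kept, those well above background on every array of a group. Accessions matched to RefSeq (GRCr8) named 28206 probes, and no coordinates of the older array design are given. The brightest probe per gene was used.

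The comparison used limma 3.58.1 under R 4.3.3, two-sided, Benjamini-Hochberg over all 30229 genes, threshold 0.05, and every adjusted p of a gene is from this test. Errors of differences are SE. The fit was tested on simulated data. The members and lists were chosen with earlier results of these data known. All members are accounted for; of the other pathway lists, any called gene and otherwise the 3 with the smallest p are named, except a few that are not reported here, and values of a few marker genes were chosen after they were seen. Cell type marker lists for S3, distal, collecting duct, podocyte, leukocyte and adipocyte transcripts had 0 called genes, and a list of 6 cell division genes had 6 called higher. The number of arrays limits precision. Alternatives were other scalings, background corrections, filters, probe choices, variance models, the replicate number as a block, and leaving out arrays.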

Additional observations from a re-analysis of the deposited data

How the results depend on the processing

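All 18 alternatives kept the direction of Pc, with differences of -0.42 or further below 0, and 9 called it (limma adjusted p from 0.00318 to 0.227). Besides spike-in scaling, no alternative called another of the 33 members. Pc was not called without a detection filter (adjusted p = 0.126), with the replicate block (0.156), without any single array, or without both corn oil replicate 3 and monuron replicate 1 (0.227). Members called lower were then 0 in each of these. Of all genes tested, 0.949% were called higher and 0.414% lower in the main values. Leaving out 1 array gave 0.0827% to 0.367% higher, 0.0165% to 0.086% lower and 0 to 1 other pathway genes lower. Without a detection filter, 0.147% were higher and 0.0418% lower, after normexp and quantile 1.48% and 1.06% (with 2 other pathway genes lower, Bnip3l and Pdp2), and with trend and robust 1.43% and 0.913% (with 1 other pathway gene higher, Bpgm). The replicate block gave 0 higher and 0 lower by limma, with 4557 genes at an unadjusted p under 0.05, and leaving out the pair gave 0 higher and 0 lower, with 4136. Deviations of same-numbered arrays had correlations of -0.08, 0.11 and -0.17. These show no shared deviation, but with 3 arrays a group they cannot exclude a pairing.

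Scaling on 7 spike-in probes moved the median of all genes to -0.48, called 29 members and 72 other pathway genes lower, 1 other pathway gene higher and 68.5% of all genes lower. The medians of the 4 roles were then -0.63 (glucose making), -0.71 (fructose entry), -0.44 (glucose use) and -0.41 (hypoxia), glucose making and fructose entry lying below the median of all genes and the other roles above it. Genes above 0 in the main values that were called lower there were Slc2a1 (-0.32), Hk1 (-0.35), Pfkp (-0.43), Pfkfb3 (-0.47), Aldoa (-0.45), Tpi1 (-0.33), Gapdh (-0.47), Pgk1 (-0.43), Pgam1 (-0.50), Pkm (-0.35), Ldha (-0.50), Pdk1 (-0.43), Adm (-0.48), Bnip3 (-0.41), Ndrg1 (-0.47), P4ha1 (-0.34), P4ha2 (-0.32), Pgm2 (-0.27), Ugp2 (-0.26), Mdh2 (-0.35) and Pgls (-0.24). The within-array ratio of Pkm over Pc, which no constant scaling of an array can move, was 0.45 after normexp and quantile. The cause of these changes was not tested.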

Other observations

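Control spots outside the main measurement carry probes near the 3′ and 5′ ends of Gapdh and Pgk1 transcripts, 10 spots each. Their 3′ over 5′ signal ratio for Gapdh was 5.48, 5.15 and 5.22 with monuron, against 5.19, 5.42 and 5.38 with corn oil. For Pgk1 it was 49.2, 50.9 and 46.7 with monuron, against 45.6, 48.7 and 47.6 with corn oil. Both overlapped between the groups. The 3′ control probe of Pgk1 itself read 167.9, 154.1 and 160.3 with monuron, against 150.1, 157.9 and 145.7 with corn oil, and that of Gapdh 94.4, 94.8 and 97.4 with monuron, against 98.1, 96.3 and 101.1 with corn oil.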
